A study of Mus musculus with 2 samples.

Results

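A set of 10 nuclear genes whose proteins copy, package, transcribe or stabilise the products of the mitochondrial genome were followed in adult mouse heart. They were Tfam, Tfb1m, Tfb2m, Polrmt, Polg, Polg2, Lrpprc, Slirp, Nrf1 and Gabpa, and they were taken by gene symbol, from a set drawn up with earlier results of these data known. All 10 symbols were found, among 55450 annotated mouse genes of which 21951 were protein-coding. The study measured total RNA from the hearts of 2 female B6CASTF1/J mice aged 8 to 10 months, with 1 library from each. The labels describe the strain as a cross of B6 with Cast, give no treatment, and number the mice animal 1 (replicate 1 here) and animal 3 (replicate 2 here). Ribosomal RNA was reduced, ERCC spike-ins were added, the input was 300 ng of RNA a library, and the kit kept the strand of the RNA. Both libraries carry the same donor identifier, so their being separate animals rests on the animal and replicate numbers. Neither the part of the heart nor any pooling is given in the sources used here. Both mice form 1 group, so the values are levels with their spread over 2 animals, with no test between conditions.

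Mitochondria keep a small circular genome that encodes core subunits of the respiratory chain and of ATP synthase, along with the ribosomal and transfer RNAs needed to make them. TFAM coats and bends this DNA into nucleoids and, with TFB2M and the phage-like RNA polymerase POLRMT, starts its transcription, while polymerase gamma (catalytic subunit POLG, accessory subunit POLG2) replicates it. TFB1M methylates the small mitochondrial ribosomal RNA, LRPPRC and SLIRP together hold mitochondrial mRNAs stable, and NRF1 and GABPA are nuclear DNA-binding factors known to activate many genes for respiration, Tfam among them. Nrf1 here is nuclear respiratory factor 1, and not Nfe2l1, which encodes another factor that is also called NRF1. Heart muscle is rich in mitochondria, and inherited defects of several of these factors are known to affect it.

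The tissue matched its label. All 7 cardiomyocyte markers examined were present, with a median of 4030 ± 247 TPM (SD, n = 2). TPM, the deposited unit of level, is corrected for transcript length and library size, so that levels can be compared between genes. Endothelial, fibroblast, smooth muscle and macrophage markers had medians of 36.8, 13.4, 10.5 and 5.34 TPM, and none of 3 liver markers reached 1 TPM in both animals. Depth, as the sum of expected counts over all features, was 42223411 for replicate 1 and 40553237 for replicate 2. RNA of the mitochondrial genome made up 35.2% of all TPM in replicate 1 but 41.0% in replicate 2, and since TPM has a fixed total, nuclear genes share less of it in the latter. The summed level of 5 red blood cell markers was 3478 TPM in replicate 1 and 2255 in replicate 2, and all 5 were lower in replicate 2. Whether blood content bears on any value below was not tested. In tissue of mixed cells, fewer cells of a type and less RNA per cell cannot be told apart.

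All 10 genes reached 1 TPM in both animals, as did 48.8% of protein-coding genes and 20.9% of all genes. On complete coding models alone 9 reached it by alignment and 8 in the FASTQ-derived table. Their median was 18.4 TPM in replicate 1 and 16.2 in replicate 2, or 17.3 ± 1.58 (SD, n = 2). Across the 10716 protein-coding genes at 1 TPM or more in both animals the median was 8.48 and 7.42 TPM. Within the group the levels ran from 63.9 ± 7.65 TPM for Slirp to 1.49 ± 0.10 for Polg2. The 10 genes summed to 227 and 200.1 TPM. Ranked by mean, the order was Slirp, Lrpprc, Polg, Tfb2m, Tfam, Polrmt, Gabpa, Nrf1, Tfb1m and Polg2. Of the 9 pairs of neighbours in that order, 6 had ranges over the 2 animals that stayed apart. Polg and Tfb2m, Tfam and Polrmt, and Polrmt and Gabpa overlapped, so their order is not set by these samples. Nrf1 and Tfb1m were apart by a narrow margin, with 4.30 TPM as the lower Nrf1 value and 4.18 as the higher for Tfb1m.

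**Figure D1:**
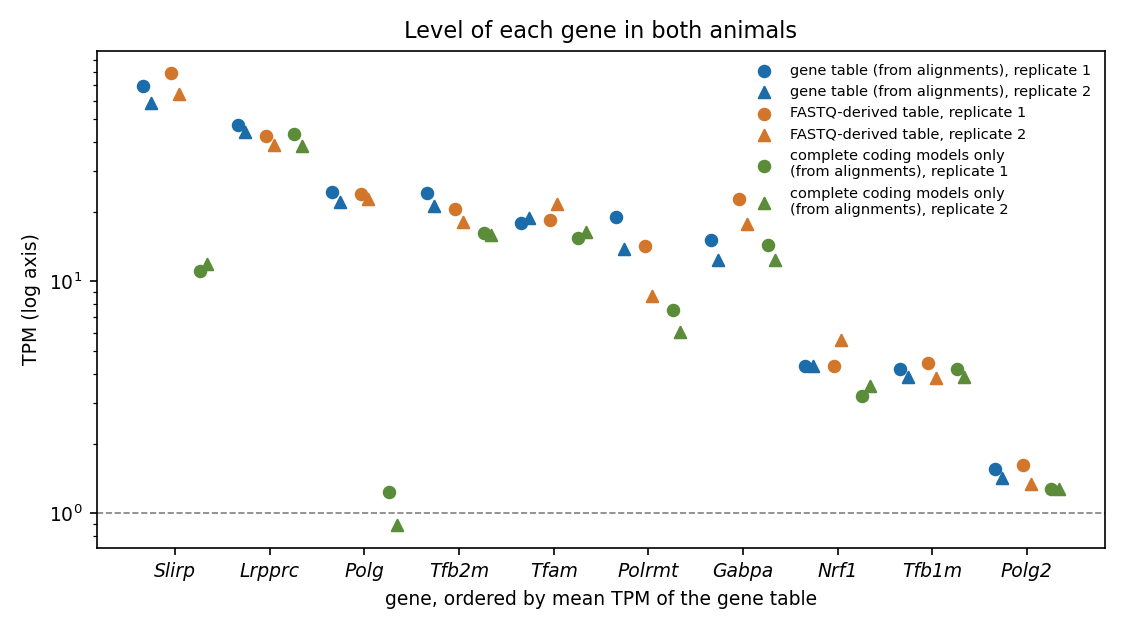
TPM (log axis) of each of the 10 genes in replicate 1 (circles) and replicate 2 (triangles), from the gene table (blue), the FASTQ-derived table (orange) and complete coding models of the alignment-derived table (green), with a dashed line at 1 TPM. Slirp and Lrpprc stand highest and Polg2 lowest by gene totals, while on complete coding models Polg and Slirp drop far below their gene totals.

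Among the factors that start mitochondrial transcription, Tfb2m, Tfam and Polrmt had gene totals close to one another in the alignment-derived table. Tfb2m (chromosome 1, 179528055 to 179546267, minus strand of mm10) had 24.0 TPM in replicate 1 and 21.2 in replicate 2. Tfam (chromosome 10, 71225464 to 71238280, minus strand) had 17.9 and 18.7 TPM. Polrmt (chromosome 10, 79736123 to 79746581, minus strand) had 19.0 and 13.7 TPM. Tfam was the higher of the last pair in replicate 2 and the lower in replicate 1, and the log2 ratio of Tfam to Polrmt was 0.18 ± 0.38 (SD, n = 2). Polrmt was further below in the other measures, where that ratio was 0.84 in FASTQ-derived totals and 1.23 and 1.26 on complete coding models (alignment- and FASTQ-derived). Tfb1m (chromosome 17, 3519256 to 3557781, minus strand), the paralogue of Tfb2m that acts on ribosomal RNA, had 4.18 and 3.87 TPM. In both animals it lay far below Tfb2m, with a log2 ratio of Tfb2m to Tfb1m of 2.48 ± 0.05 (SD, n = 2), or 5.59-fold.

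Tfam was assigned by the 2 deposited quantifications to different messages, and these messages differ at both ends. One transcript table was derived from alignments to the transcriptome and the other directly from a FASTQ file of reads. GENCODE M21 lists 3 complete coding models, Tfam-201, Tfam-202 and Tfam-203, which share 5 internal exons and differ in the first and the last. The junctions into the second exon are shown because they tell the models apart at the start. Each line gives 30 bases, 5′ to 3′, from the GENCODE M21 transcripts on the minus strand of mm10, with the end of the first exon in capitals.
Tfam-201: CCCCTCGTCTATCAGtcttgtctgtattcc
Tfam-202: GGCAGGGGCCTGGGGtcttgtctgtattcc
Tfam-203: ATTTTTTTGCTTAGGtcttgtctgtattcc
The first exons measure 441, 46 and 221 bases, and the coding sequences 729, 645 and 597 bases, in that order.

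Tfam-201 was stable between the tables. It had 4.74 and 4.52 TPM in the alignment-derived table (replicates 1 and 2) and 4.43 and 4.21 in the FASTQ-derived table. Tfam-202 had 10.4 and 11.0 TPM in the first table but 0.35 and 0.77 in the second. Tfam-203 did the reverse, with 0.27 and 0.82 TPM in the first and 10.2 and 10.3 in the second. The short coding models thus traded places, in both animals, at a nearly equal level. By counts the long form led in both tables, with 68.7 ± 2.10% and 66.6 ± 2.83% of Tfam counts (SD, n = 2). A TPM share divides counts by length, and Tfam-201 (4167 bases) is longer than Tfam-202 (779) and Tfam-203 (899), with a last exon of 3236 bases against 243 and 188. Summed over the complete coding models, Tfam had 15.9 ± 0.63 TPM in the first table and 15.1 ± 0.20 in the second (SD, n = 2). The cause of the exchange between tables was not tested.

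Polrmt, the mitochondrial RNA polymerase, had a gene level that rested in part on 1 short non-coding model. Polrmt-205, a processed transcript of 374 bases, took 8.89 and 4.73 TPM in the alignment-derived table, which was 46.7% and 34.4% of the gene's TPM. It held 7.56% and 4.77% of the counts. In the FASTQ-derived table it had 4.24 and 0.57 TPM. The full coding form Polrmt-201 had 4.84 and 5.33 TPM in the first table and 6.83 and 5.32 in the second. It led by counts in both, with 63.3 ± 11.9% and 80.8 ± 5.56% (SD, n = 2). Polrmt-202, a coding model that lacks exon 9 of 222 bases and keeps the reading frame, had 314 and 85.1 counts in the first table but 33.3 and 36.0 in the second. The value of 314 stands apart from the other 3.

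Tfb2m and Tfb1m were simpler. Tfb2m-201, the only complete coding model of Tfb2m, had 16.1 and 15.8 TPM by alignment, against 17.8 and 16.3 in the FASTQ-derived table. It held 91.4 ± 2.67% and 96.1 ± 1.07% of the counts. Tfb2m-205, a short processed transcript, had 4.72 and 3.89 TPM in the first table and 0 counts in both animals in the second, where 3 counts would be 0.35 TPM. Tfb1m-201 held 100% and 99.4 ± 0.17% of Tfb1m TPM.

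Polymerase gamma showed the widest gap between partners. Polg (chromosome 7, 79446231 to 79466362, minus strand), the catalytic subunit, had 24.2 TPM in replicate 1 and 22.0 in replicate 2, with 2179 and 1997 counts. Polg2 (chromosome 11, 106768253 to 106779537, minus strand), the accessory subunit that holds the enzyme on DNA, had 1.56 and 1.42 TPM, with 78 and 69 counts. By alignment both animals showed the gap at nearly the same size, with a log2 ratio of Polg to Polg2 of 3.95 ± 0.002 (SD, n = 2), or 15.4-fold. With so few Polg2 counts, that small SD over 2 animals is not a measure of precision. The FASTQ-derived table gave like gene levels, 23.8 and 22.7 TPM for Polg and 1.62 and 1.34 for Polg2.

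The gap did not hold for complete coding models. Polg-201, the only complete coding model among 18 models of Polg, had 1.24 and 0.89 TPM by alignment, against 1.13 and 0.95 in the FASTQ-derived table. Its mean was 1.06 ± 0.25 TPM in the first (SD, n = 2). The complete coding model of Polg2 had 1.28 and 1.27 TPM in the first table and 0.85 and 1.02 in the second. On these models Polg was the lower of the pair in both animals of the first table and the direction was mixed in the second. Most Polg signal was placed elsewhere. By TPM, 39.5 ± 1.07% lay on partial coding models, 31.8 ± 2.01% on retained-intron models, 24.1 ± 3.84% on models marked for nonsense-mediated decay and 4.58 ± 0.76% on the complete coding model (alignment-derived, SD, n = 2). By counts the shares were 5.09%, 44.1%, 37.5% and 13.3%. Partial models are short, so their share is large by TPM and small by counts, while the complete coding model stayed low by either measure.

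Across 10703 nuclear protein-coding genes at 1 TPM or more in both animals, the median gene had 86.4% of its TPM on complete coding models. Only 1.66% of those genes had under 10% there in the alignment-derived table, and Polg was 1 of them. In the FASTQ-derived table it was 1.87%, with Polg and Slirp among them. Polg ranked near the bottom, with 0.888% of genes at or below its share in the first table and 0.935% in the second. The median of the 10 genes was 81.9% in the first table. In the second it was 65.3%, against 82.7% for the median gene.

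Long models held most Polg counts, and their sequences show what separates them from the coding form. Polg-203, a retained-intron model of 4589 bases, had 881 and 749 counts by alignment, against 1023 and 850.1 in the FASTQ-derived table. It keeps an intron of 78 bases that begins with GT and ends with AG. The intron is shown in capitals with 12 bases of exon on each side, 5′ to 3′, at chr7:79452017-79452118 on the minus strand of mm10.
Polg kept intron: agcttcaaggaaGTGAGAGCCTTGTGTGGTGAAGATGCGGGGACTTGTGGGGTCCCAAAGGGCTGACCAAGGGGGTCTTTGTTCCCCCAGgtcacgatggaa
Its length is a multiple of 3, and read in the frame of Polg-201 it brings in a stop codon that starts at base 2 of the intron.

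Polg-213, a model of 4247 bases marked for nonsense-mediated decay, had 695 and 832 counts in the first table and 621.5 and 708 in the second. It lacks 76 bases of an exon that Polg-201 keeps, a length that is not a multiple of 3. Those bases, chr7:79459437-79459512 on the minus strand, are in capitals with 12 bases of Polg-201 on each side, 5′ to 3′.
Polg exon segment: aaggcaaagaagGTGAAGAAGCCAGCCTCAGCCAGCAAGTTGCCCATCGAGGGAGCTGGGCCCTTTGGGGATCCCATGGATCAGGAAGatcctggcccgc
Polg-213 was annotated with 1494 coding bases, against 3651 in Polg-201. The models also differ at the 3′ end, where the last exon measures 3807 bases in Polg-201, 656 in Polg-203 and 475 in Polg-213. Polg-201 is 7837 bases long in all, so a message with its coding exons and a shorter 3′ end matches no complete model in this annotation. Whether the long last exon, the kept intron or the missing segment set the division of counts was not tested.

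**Figure D2:**
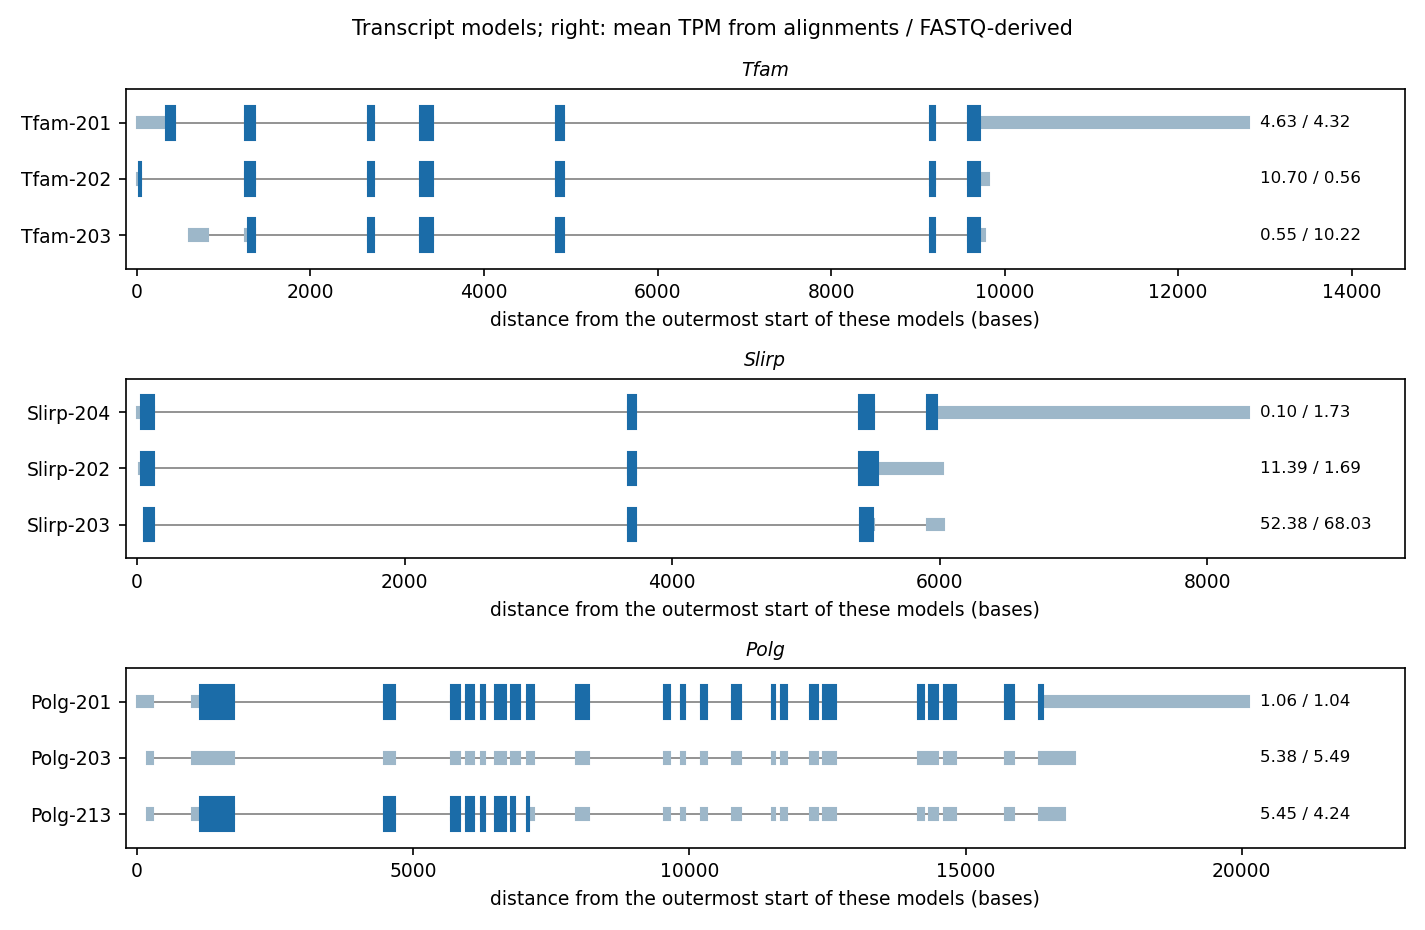
Exon structure of transcript models of Tfam, Slirp and Polg, drawn to scale against distance from the outermost start in bases, with tall dark blocks for coding sequence, low pale blocks for other exon sequence, and mean TPM over 2 animals in the alignment-derived and FASTQ-derived tables at the right. Tfam-202 (10.7 and 0.56 TPM) and Tfam-203 (0.55 and 10.2) exchange levels between the tables, while Polg-201 (1.06 and 1.04) stays near 1 TPM in both.

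Polg2 was counted thinly. Its complete coding model held 86.1 ± 5.67% of Polg2 TPM by alignment and 64.3 ± 16.5% in the FASTQ-derived table (SD, n = 2). The rest lay on models marked for nonsense-mediated decay, which had 17.9% and 9.93% in the first table and 47.4% and 24.1% in the second. With 69 to 78 counts for the whole gene, those shares rest on few reads.

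By gene totals the RNA-stabilising pair was the most abundant of the 10 genes. Slirp (chromosome 12, 87443896 to 87452206, plus strand), a small RNA-binding protein, had 69.3 TPM in replicate 1 and 58.5 in replicate 2. Lrpprc (chromosome 17, 84705247 to 84790789, minus strand), its large pentatricopeptide-repeat partner, had 47.3 and 44.0 TPM. Slirp lay above Lrpprc in both animals, and the log2 ratio of Lrpprc to Slirp was -0.48 ± 0.10 (SD, n = 2). Among the protein-coding genes at 1 TPM or more, Slirp stood at the 92.5th percentile and Lrpprc at the 89.7th. Counts went the other way, 781 and 703 for Slirp against 6363 and 5785 for Lrpprc, which has the longer transcript.

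The level of Slirp came mostly from 1 short partial model. Slirp-203, of 362 bases, had 58.2 and 46.6 TPM by alignment, against 75.7 and 60.3 in the FASTQ-derived table, or 81.8 ± 3.02% and 95.1 ± 1.42% of the gene (SD, n = 2). The complete coding models together had 11.5 ± 0.54 TPM in the first table and 3.41 ± 0.51 in the second. Slirp-202 made up nearly all of that in the first table, with 11.0 and 11.8 TPM against 1.27 and 2.10 in the second. Slirp-204, of 2701 bases, had 0.09 and 0.10 TPM in the first and 1.78 and 1.67 in the second. On complete coding models alone, Slirp lay below Lrpprc (40.7 ± 3.28 and 38.5 ± 2.53 TPM) in both tables. Among the 10 genes Slirp then ranked 5 by alignment and 7 in the FASTQ-derived table. The models are shown where the third exon begins, 5′ to 3′, from the GENCODE M21 transcripts on the plus strand of mm10, with the bases that Slirp-204 has and Slirp-203 lacks in capitals.
Slirp-204: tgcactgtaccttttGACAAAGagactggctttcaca
Slirp-203: tgcactgtaccttttagactggctttcaca
The missing stretch measures 7 bases, which is not a multiple of 3. Their last exons measure 2403 and 121 bases.

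Lrpprc was nearly all 1 message. Lrpprc-201 had 43.0 and 38.4 TPM by alignment, against 40.2 and 36.7 in the FASTQ-derived table. It held 97.0 ± 0.78% and 96.7 ± 0.33% of the counts. Lrpprc-202, a processed transcript, had 3.80 and 5.14 TPM in the first table and 0 counts in the second, where 3 counts would be 0.11 TPM.

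In gene totals by alignment the nuclear regulators lay next to each other in the lower part of the order. Gabpa ranked 4 and Nrf1 8 in FASTQ-derived totals and on complete coding models of either table, so that placing depends on the measure. Gabpa (chromosome 16, 84834925 to 84863779, plus strand), the DNA-binding ETS subunit of GABP, had 15.1 TPM in replicate 1 and 12.4 in replicate 2. Nrf1 (chromosome 6, 30047988 to 30153458, plus strand) had 4.30 and 4.33 TPM. Nrf1 stood below Gabpa in both animals, with a log2 ratio of -1.66 ± 0.21 (SD, n = 2), or 3.16-fold lower. Gabpb1, an activating partner of Gabpa, had 6.52 and 3.45 TPM, so Gabpa exceeded it by 1.53 ± 0.45 on the log2 scale. Gabpb2 had 5.12 and 4.24 TPM, and Gabpa was not compared with Gabpb1 and Gabpb2 together.

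Both tables gave Gabpa 2 long coding models that share a coding sequence of 1362 bases. Gabpa-201 (4987 bases) had 7.60 and 7.42 TPM in the alignment-derived table, and Gabpa-202 (2202 bases) had 6.80 and 4.91. Together they had 13.4 ± 1.46 TPM in the first table and 13.0 ± 1.33 in the second (SD, n = 2). The gene total was higher in the FASTQ-derived table, at 22.7 and 17.7 TPM. There the short processed transcripts Gabpa-203 (4.53 and 4.63 TPM) and Gabpa-204 (3.37 and 0.71) held 32.5 ± 3.27% of the gene, and both had 0 counts in the alignment-derived table, where 3 counts would be 0.18 and 0.38 TPM. Nrf1 was spread over 20 models, 13 of them complete and coding. Nrf1-210 led in both tables with 40.3 ± 5.77% and 29.2 ± 1.82% of TPM. Nrf1-219 had 0.01 counts in replicate 1 (3 counts would be 0.062 TPM) and 1.03 TPM in replicate 2 of the first table, and 0.36 and 1.08 TPM in the second, so it was lower in replicate 1 of each.

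**Figure D3:**
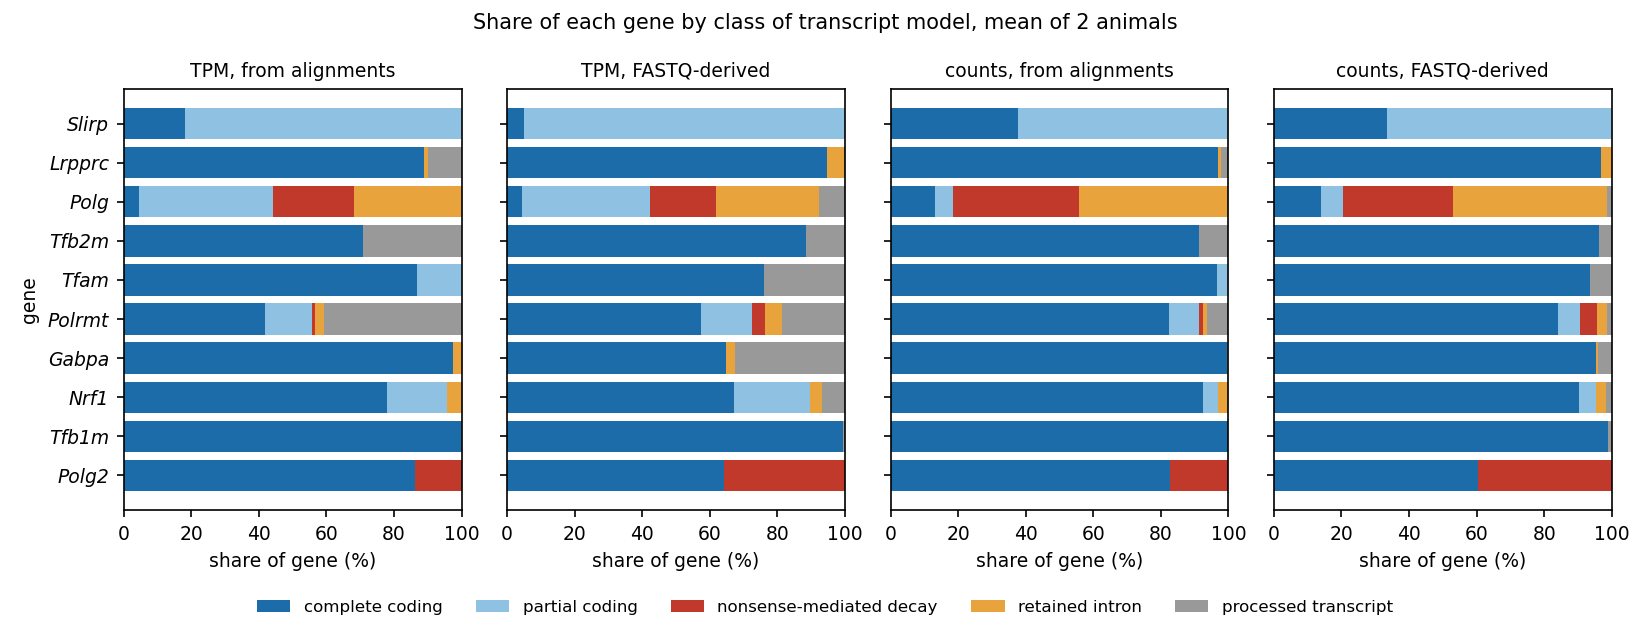
Share of each gene in percent, as the mean of 2 animals, on complete coding, partial coding, nonsense-mediated decay, retained-intron and processed-transcript models, by TPM and by counts in each transcript table. Tfb1m and Lrpprc are mostly complete coding in each panel, Polg has under 5% there by TPM, and Slirp is mostly partial coding.

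Agreement on the main model was measured over both tables. By TPM, 6 of the 10 genes had the same main model in both, against 81.4% of 9855 protein-coding genes with several models. The 4 that changed were Tfam, Polrmt, Polg and Gabpa. Of these, only Tfam had the same main model in both animals within each table. The main model of Polrmt and of Polg differed between the animals by alignment, and that of Gabpa in the FASTQ-derived table. By counts all 10 had the same main model, against 87.0%. In gene totals, 0 of the 10 differed 2-fold or more between the tables in both animals, against 1.11% of protein-coding genes and 5.21% of all genes compared. With only 10 genes, that 0 does not set them apart from the background. Gene totals did move between the tables, from a mean of 13.7 to 20.2 TPM for Gabpa and from 16.4 to 11.4 for Polrmt.

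Promoter windows from RefSeq (GRCm38.p6, 250 bases before to 50 bases after each start site) were found for all 10 genes, as 11 windows of 32851 in the table. They were searched on both strands for letters that GABPA and NRF1 are known to bind, because both factors belong to the group. The GC box was searched as well and is not counted among those letters. The ETS letters CCGGAAGT were in the windows of Tfam and Polg and in 3.89% of all windows. The shorter CCGGAA, which every CCGGAAGT contains, was in 7 of the 10 genes (Gabpa, Polg, Polg2, Polrmt, Slirp, Tfam and Tfb1m) and in 14.9% of windows. By window it was in 7 of the 11. The letters CGCATGCG, from the centre of the NRF1 site, were in Tfb2m and Gabpa and in 1.87% of windows. The full NRF1 palindrome, which adds a G before and a C after those letters, was in 0 of the 10 genes and in 0.971% of windows. With any base in place of the A at its centre, the palindrome was in Polrmt and in 4.60% of windows. GGGCGG, the GC box, was in 6 of the 10 genes and in 35.7% of windows. Counts of genes and shares of windows are different units, and with only 10 genes no difference between them was tested.

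The windows that hold the longer letters are shown with 16 bases on each side of the match, which is in capitals, 5′ to 3′ in the direction of the gene. Those of Tfam (chr10:71238068-71238107), Polg (chr7:79466288-79466327), Polrmt (chr10:79746562-79746603) and Tfb2m (chr1:179546241-179546280) lie on the minus strand, and that of Gabpa (chr16:84835100-84835139) on the plus strand.
Tfam promoter: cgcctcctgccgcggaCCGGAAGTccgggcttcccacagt
Polg promoter: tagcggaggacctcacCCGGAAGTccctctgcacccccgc
Polrmt promoter: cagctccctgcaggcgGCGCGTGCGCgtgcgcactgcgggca
Tfb2m promoter: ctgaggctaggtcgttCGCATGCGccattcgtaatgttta
Gabpa promoter: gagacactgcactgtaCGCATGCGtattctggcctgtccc
The matches start at -47 in Tfam, -38 in Polg, -6 in Polrmt, 12 in Tfb2m and -8 in Gabpa, counted from the start site. Polrmt has a further match at 0 that overlaps the one shown. Tfam and Polg, with the same ETS letters, had mean gene levels of 18.3 and 23.1 TPM. A match describes these letters in the mm10 sequence only, and binding was not measured.

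Between the animals each of the 10 genes differed by less than 1.5-fold once ratios were centred. Centred on the median of 11871 compared genes, the log2 ratio of replicate 2 over replicate 1 ranged from -0.28 for Polrmt to 0.25 for Tfam, with a median of 0.05 over the 10. None of the 10 was 2-fold or more apart, against 1.42% of compared genes, and none was 1.5-fold apart, against 5.79%. With only 10 genes, those counts do not set the group apart from all compared genes. Of the 10, 7 were higher and 3 (Polrmt, Gabpa and Slirp) lower in replicate 2. In TPM as deposited, whose median shift was -0.18, 8 were lower and 2 (Tfam and Nrf1) higher. The deposited credibility bounds of the 2 animals did not overlap for 3 of the 10, Slirp, Polrmt and Gabpa, against 28.0% of compared genes. For Polrmt they ran from 17.2 to 22.6 TPM and from 12.5 to 16.9. In the FASTQ-derived table the centred ratios ran from -0.56 for Polrmt to 0.52 for Nrf1. Before centring, Polrmt passed 1.5-fold there, with 14.2 TPM in replicate 1 and 8.66 in replicate 2. On counts the Polrmt ratio was -0.06. Polrmt-205, above, is the model whose TPM differed most in size between the animals within this gene.

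**Figure D4:**
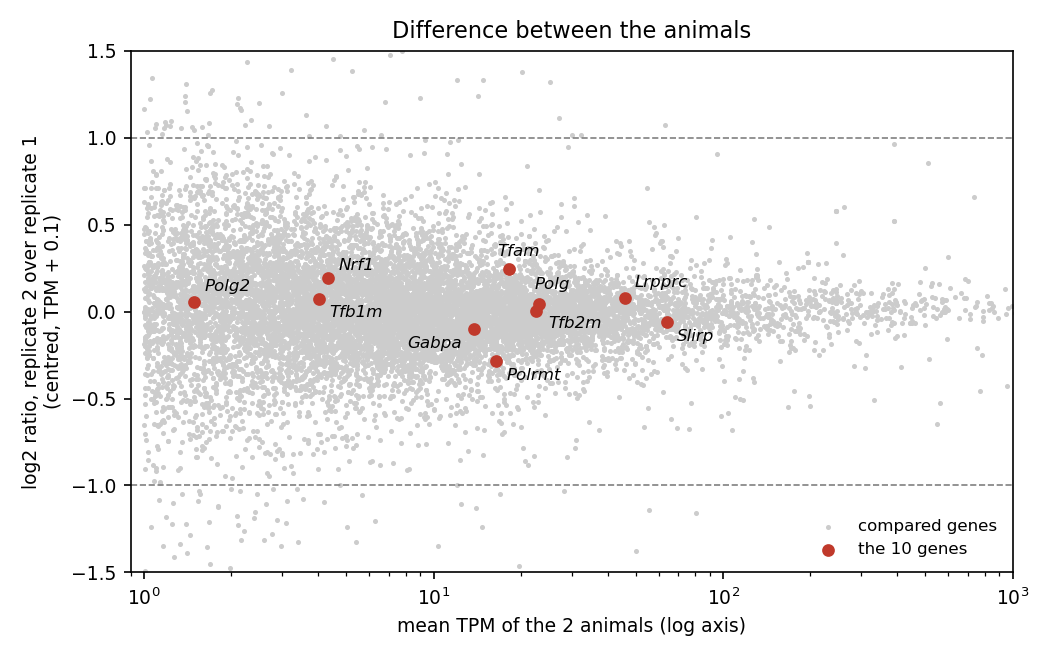
Centred log2 ratio of replicate 2 over replicate 1 against mean TPM (log axis) for compared genes in grey and the 10 genes in red, with dashed lines at 2-fold. All 10 lie well inside the lines, and 114 compared genes fall beyond the axes.

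Partners in mitochondrial DNA replication were measured beside the 10 genes. Of 12 genes for replication and repair, 9 reached 1 TPM in both animals. The list median was 2.67 ± 0.40 TPM (SD, n = 2). Endog, a mitochondrial endonuclease, was highest at 34.5 and 31.9 TPM. Twnk, the replicative helicase, had 11.2 and 11.3 TPM, and Ssbp1, the single-stranded DNA-binding protein, 11.4 and 9.45. In gene totals Polg exceeded Twnk by 1.03 ± 0.10 on the log2 scale, but on complete coding models it lay below Twnk, at -3.41 by alignment and -3.32 in the FASTQ-derived table. Tfam exceeded Ssbp1 by 0.81 ± 0.24. Primpol (0.51 and 0.76 TPM), a primase-polymerase, and Dna2 (0.14 and 0.30), a nuclease-helicase, stayed under 1 TPM in both animals. Polg2, with a mean of 1.49 TPM, lay below both the helicase and the binding protein.

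Genes for the nucleoid and its quality control had a higher median than those for replication. All 6 reached 1 TPM, with a median of 69.3 ± 6.48 TPM and a lowest mean of 12.6 TPM, which is below Polg and Endog. The highest were the chaperone Hspa9 (221 and 191 TPM) and the prohibitins Phb (139 and 126) and Phb2 (102 and 87.8). These proteins have roles beyond the nucleoid. Of 12 genes for deoxynucleotide supply, 10 reached 1 TPM, with a median of 10.3 ± 1.45 TPM. Sucla2 (248 and 227 TPM) and Suclg1 (178 and 159), subunits of the citric acid cycle enzyme succinyl-CoA ligase, led, followed by Mpv17 (23.2 and 17.7), an inner membrane protein. Rrm2 (0.48 and 0.37), the ribonucleotide reductase subunit of dividing cells, and Tymp (0.11 and 0.17), thymidine phosphorylase, stayed under 1 TPM.

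Genes for later steps of mitochondrial transcription had a lower median than the 10 genes. Of 6 elongation and termination genes 5 reached 1 TPM in both animals, and the list median was 5.88 TPM in each animal. Single genes of the list moved more between the animals than this median did. Mterf3 had 20.4 and 16.1 TPM, the elongation factor Tefm 11.9 and 9.93, and Mterf2 6.60 and 7.58. The log2 ratio of Tefm to Polrmt was -0.57 ± 0.15 in gene totals by alignment, but 0.04 in FASTQ-derived totals and -0.05 on complete coding models by alignment, so that order depends on the table. All 17 measured genes of mitochondrial RNA processing and turnover reached 1 TPM, with a median of 12.5 ± 0.67 TPM, and 1 listed symbol, Prorp, was not matched. Fastk (123 and 102 TPM), Hsd17b10 (93.7 and 87.8), a subunit of mitochondrial RNase P, and Grsf1 (73.1 and 65.7), an RNA granule protein, were the highest. Slirp, with a mean of 63.9 TPM, and Lrpprc, with 45.7, lay below those 3.

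The methyltransferases of ribosomal RNA, the class of Tfb1m, spanned means of 1.32 to 11.4 TPM. All 6 on that list reached 1 TPM, with a median of 5.27 ± 0.18 TPM, led by Nsun4 (11.9 and 10.9), Mrm3 (9.98 and 8.49) and Mrm1 (6.13 and 6.88). Tfb1m exceeded Dimt1, the related enzyme of cytosolic ribosomal RNA, by 0.82 ± 0.15 on the log2 scale. All 9 other nuclear regulators reached 1 TPM, with a median of 10.7 ± 0.95 TPM. Nfe2l1 (170 and 142 TPM), Esrra (62.9 and 53.1), the oestrogen-related receptor alpha, and the coactivator Ppargc1a (39.1 and 31.5) all lay above Gabpa and Nrf1. Nfe2l1 was on the list although it is not nuclear respiratory factor 1, and whether it regulates mitochondrial genes here was not tested. Across the lists of nuclear genes, 62 of 68 measured genes reached 1 TPM in both animals, against 48.8% of protein-coding genes. Of 62 compared, 0 were 2-fold apart between the animals, against 1.42% of all compared genes, so that 0 does not set the lists apart.

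The 13 mRNAs of the mitochondrial genome, which these factors serve, had a median of 8012 ± 425 TPM. The highest were mt-Co1 (35756 and 34807 TPM), mt-Co3 (32499 and 32265) and mt-Atp6 (15253 and 19997). In the FASTQ-derived table mt-Co1 was still first (mean 39370 TPM), but mt-Atp6 (30166) and mt-Cytb (16840) came above mt-Co3 (13735), which was less than its alignment-derived level by more than 2-fold. Of the 13, 12 had a higher centred level in replicate 2 by alignment, with a median log2 ratio of 0.36. That of the 10 nuclear factors was 0.05. Only mt-Atp8 passed 2-fold, at 1.17 on the log2 scale (3817 and 7555 TPM), and this did not hold in the FASTQ-derived table, where it had 2.34 and 1.89 TPM. Its level is therefore uncertain. The gene overlaps mt-Atp6, and whether that bears on its values was not tested. Without passing 2-fold between the animals, mt-Co2 also differed between the tables, with means of 585 TPM by alignment and 2383 in the FASTQ-derived table. Ratios between mitochondrial and nuclear RNA also move with how much of each the library kept, and their part in these values was not tested.

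**Figure D5:**
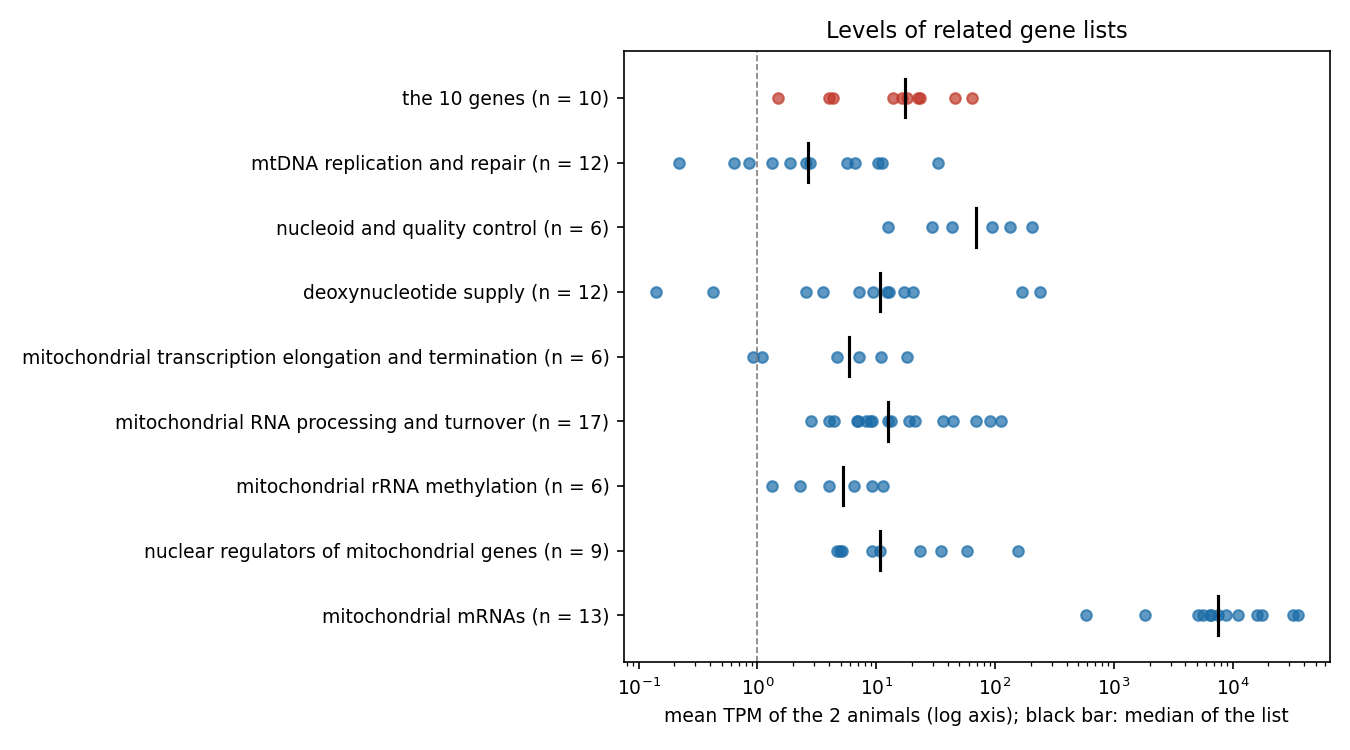
Mean TPM of the 2 animals (log axis) for each of the 10 genes (red) and each pathway gene (blue), with a black bar at the median of each list and a dashed line at 1 TPM. The 10 genes centre at 17.3 TPM, between replication genes below and nucleoid genes above, and the mitochondrial mRNAs stand far higher.

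Of 10 pairs of partner or related genes compared in each animal, 4 were 2-fold or more apart in both. They were Polg over Polg2, Tfb2m over Tfb1m, Gabpa over Gabpb1 and Gabpa over Nrf1. Not every pair works together, since Tfb2m and Tfb1m act in different steps and Gabpa and Nrf1 are separate DNA-binding factors. Polg over Twnk was near the mark, 2-fold or more in replicate 1 only. On complete coding models alone 7 pairs were 2-fold apart in either table, and the Polg to Polg2 log2 ratio became -0.28 by alignment and 0.15 in the FASTQ-derived table. For Lrpprc to Slirp the ratio turned to 1.82 and 3.50 on those models. That of Tfb1m to Dimt1 was 2.10 and 2.16. Gabpa over Gabpb1 was 2.22 in FASTQ-derived gene totals.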

How the data were processed

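Total RNA of 2 hearts was sequenced. The deposited description files name mm10 as assembly and GENCODE M21 as annotation. Aligner and quantifier: not given in the sources used here. Reads of the Cast genome were thus assigned to a B6 reference. Per the file headers, the alignment-derived gene and transcript tables hold expected counts and TPM, and the FASTQ-derived table estimated counts and TPM, all computed by the authors. The deposited isoform percent (IsoPct) gives each transcript's share of its gene, and shares recomputed here from TPM were within 0.262 percentage points of it. Credibility bounds are the authors' own, whose level no label or header states. Depth was 42223411 and 40553237 expected counts (alignment-derived) and 43782858 and 41468698 estimated counts (FASTQ-derived). The kit was directional, and no label or header says how strand entered the counting.

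Members were found by symbol in the FASTQ-derived identifiers and joined by gene identifier. Genes were called present at 1 TPM or more in both animals. Animal ratios were log2(TPM + 0.1), over genes that averaged at least 1 TPM and had 20 or more expected counts in the libraries together, centred on their median; pair ratios were log2(TPM + 0.01). Such values understate differences of low genes. A count of 0 was given a limit of 3 counts, which covers counting error only. Transcript classes come from the GENCODE biotype and its incomplete-coding tags. The ratio step was tested on simulated data. Python 3.11.15, pandas 2.3.3, numpy 2.4.6 and matplotlib 3.10.9 were used. The 10 genes and the lists were chosen with earlier results of these data known. Named genes were all members, both genes of each pair and, per list, the 3 highest, those under 1 TPM in both animals and those 2-fold apart. Gabpb2, mt-Co2 and mt-Cytb were named in addition.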

Additional observations from a re-analysis of the deposited data

How the results depend on the processing

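All 10 genes stayed at 1 TPM or more without either replicate, and 7 at 5 TPM, and 0 were 2-fold apart between the animals at other pseudocounts, without centring, on counts or in the FASTQ-derived table. The median level was 48.7 TPM when rescaled to nuclear protein-coding genes, and 16.2 to 18.4 without 1 replicate. On complete coding models, chosen after seeing the data, it was 9.15 (alignment-derived) and 5.23 (FASTQ-derived), 9 and 8 genes reached 1 TPM, 8 ranks changed in each table, 7 pairs were 2-fold apart in each, 1 gene (Slirp) differed 2-fold between the tables, and Polg over Polg2 reversed to -0.28 by alignment but was 0.15 in the FASTQ-derived table. Gene totals of the FASTQ-derived table gave 3 changed ranks. Without centring the median animal ratio was -0.13. At 10 TPM 30 pathway genes were called, and 62 to 64 without 1 replicate. Main models matched for 10 genes by counts, and for 7 to 8 without 1 replicate; pairs were 4 to 5. Causes were not tested. Of 206 alternative values, 44 of the 56 for summary results and 75 of the 150 for single genes moved by less than the spread or, for counts, by under 1.5 times. For levels and pair ratios, leaving out either animal always moves the mean by less than the SD. Those values were therefore bound to fall in the tally, which does not measure robustness to the choice of animal. No paired analysis was possible because both samples form 1 group. Depth limits Polg2 (69 to 78 counts) most.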
